A study of Homo sapiens with 6 samples.

Results

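The PDGF family comprises 4 ligand genes, PDGFA, PDGFB, PDGFC and PDGFD, and 2 receptor genes, PDGFRA and PDGFRB, and open chromatin at these 6 of 20162 protein-coding genes was compared in the parental line MDA-MB-231 and its SAP30 knockout derivative SAP30-KO1. The genes were chosen by name, with earlier results of these data known. Open sites were measured by ATAC-seq, in which a transposase inserts adapters into accessible DNA, and each gene was followed from 50 kb upstream of its start to its end. MDA-MB-231 is a human triple-negative breast cancer cell line. The parental group was of unmodified genotype and held 3 libraries. The SAP30-KO1 group was the same line after CRISPR/Cas9 knockout of SAP30, a subunit of the SIN3 complex, and also held 3 libraries. Both were grown in the same serum-containing medium, and the study describes its knockout lines as several selected knockout cells that were expanded and mixed. The labels do not say that the libraries of a group came from separate cultures, so the p-values measure the spread between these libraries, which may be technical.

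PDGF ligands are secreted dimers that drive growth and movement of mesenchymal cells, pericytes and fibroblasts. PDGFA and PDGFB are the classical chains, whereas PDGFC and PDGFD are secreted in a latent form and must be cut by a protease before they bind a receptor. The receptor tyrosine kinase encoded by PDGFRA binds dimers of PDGF-A, PDGF-B and PDGF-C, and that encoded by PDGFRB binds dimers of PDGF-B and PDGF-D. In carcinomas the ligands are often made by the tumor cells and the receptors carried by stromal cells and vessels. The comparison asks whether chromatin at these genes is more or less open in SAP30-KO1 than in parental cells. No other knockout line was compared, so loss of SAP30 cannot be told apart from other differences between the lines.

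The 6 lists held 29762 to 40650 summits, the positions of highest signal in each peak, and they hold no read counts, so the depth behind a peak is unknown. The score of a summit is a −log10 q value given by the peak caller that the authors used, with library medians between 5.58 and 6.56. Because each library was called on its own, the score was turned into a percentile rank within its own list, from 0 to 100, and a rank of 0 means that the library had no summit there. The promoter of the targeted gene, SAP30, had a summit in all 6 libraries, with ranks of 64.8 to 84.7 in parental and 49.5 to 89.5 in SAP30-KO1 cells, and a peak list does not show the sequence change of the knockout. Of the mesenchymal marker genes, VIM and CD44 had promoter summits in all 6 libraries and AXL and ZEB1 in 3. Of the luminal and epithelial marker genes, CDH1 had none, ESR1 had a promoter summit in 1 library, ERBB3 in 4 and GATA3 in 5.

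Summits of the 6 libraries were extended by 250 bp on each side and merged into 56419 open sites, of which 37 lay in the windows of the PDGF genes. Within 1 kb of a start site of their own gene lay 6 of these (promoter sites), and the other 31 were distal. Summits were found in all 6 libraries at 13 of the 37 sites (35.1%, against 28.9% of all open sites) and in a single library at 7 (18.9%, against 28.5%). All 13 belonged to ligand genes: 8 to PDGFC, 3 to PDGFD, 1 to PDGFA and 1 to PDGFB. The 9 sites of the receptor genes were found in 1 to 5 libraries. Of the 13, 7 lay in introns, 5 upstream of the gene, among them the PDGFC promoter, and 1 was the PDGFD promoter.

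Sequences are shown for 4 sites, the promoters of PDGFC and PDGFD, which were open in every library, and the distal sites of both genes whose ranks did not overlap between the groups. All are written 5′ to 3′ on the minus strand, the strand of both genes, and the coordinates are those of GRCh37 (hg19). Capitals mark matches on either strand to TGANTCA (AP-1), GGGCGG (GC box), CATTCC (TEAD), CCGGAA (ETS), CACGTG (E-box) and TGTGGT (RUNX).
PDGFD promoter (chr11:104034826-104035125, RefSeq promoter, holding the summits of all 6 libraries): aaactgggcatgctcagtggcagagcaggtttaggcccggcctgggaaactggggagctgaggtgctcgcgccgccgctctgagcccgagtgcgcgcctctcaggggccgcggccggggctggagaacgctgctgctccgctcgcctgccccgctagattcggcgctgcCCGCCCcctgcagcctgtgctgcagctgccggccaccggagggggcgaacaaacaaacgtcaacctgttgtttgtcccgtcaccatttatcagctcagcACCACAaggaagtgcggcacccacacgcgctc
PDGFD intron 1 (chr11:104005411-104005710, around the median summit): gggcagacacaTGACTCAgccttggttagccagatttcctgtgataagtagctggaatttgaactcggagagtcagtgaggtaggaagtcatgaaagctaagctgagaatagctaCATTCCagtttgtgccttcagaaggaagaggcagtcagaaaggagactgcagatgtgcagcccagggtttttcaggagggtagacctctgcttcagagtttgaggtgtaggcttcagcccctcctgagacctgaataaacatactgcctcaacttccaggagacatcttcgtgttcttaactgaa
PDGFC promoter (chr4:157893041-157893340, around the median summit): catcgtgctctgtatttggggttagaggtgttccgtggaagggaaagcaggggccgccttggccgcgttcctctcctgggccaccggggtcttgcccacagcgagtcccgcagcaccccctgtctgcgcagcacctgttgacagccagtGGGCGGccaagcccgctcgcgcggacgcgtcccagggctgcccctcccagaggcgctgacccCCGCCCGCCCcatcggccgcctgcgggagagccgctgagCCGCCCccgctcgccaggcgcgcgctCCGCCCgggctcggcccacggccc
PDGFC intron 3 (chr4:157701066-157701365, around the median summit): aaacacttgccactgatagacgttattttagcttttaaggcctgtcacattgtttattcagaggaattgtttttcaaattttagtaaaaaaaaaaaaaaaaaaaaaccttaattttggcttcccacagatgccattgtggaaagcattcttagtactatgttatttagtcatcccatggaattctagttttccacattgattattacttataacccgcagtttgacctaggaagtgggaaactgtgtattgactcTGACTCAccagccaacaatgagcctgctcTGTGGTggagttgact

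The printed promoter windows are rich in CpG dinucleotides and the printed intronic windows are not. The PDGFC promoter window held 33 CpG dinucleotides in 300 bases and that of PDGFD 26, whereas each intronic window held 2, against medians of 23 over promoter sites and 3 over distal sites of the whole genome. The other PDGF sites did not all divide this way. The distal PDGFRA site in intron 1 held 28 CpG dinucleotides, whereas the windows at internal starts of PDGFRA and PDGFC, counted as promoter sites, held 1 and 4. The PDGFC promoter held 5 GC boxes, a pair of which overlap, and the PDGFD promoter held 1. A GC box was present in 56.6% of all promoter-site windows and in 45.0% of all RefSeq promoters of this length. Each intronic window held 1 match to the AP-1 motif, which was present in 41.6% of all distal windows. Over the distal sites of the 6 genes, 14 of 31 (45.2%) held that motif and 9 (29.0%) the TEAD motif, which was present in 25.1% of all distal windows. A GC box was found in 6 of the 31 distal windows (19.4%), against 8.36% of all distal windows. These distal classes are not quite alike, since that of the whole genome leaves out sites within 1 kb of a start of any gene. The 31 include the PDGFB site 47.7 kb upstream, which lies at the promoter of a noncoding gene. That site held a GC box and an AP-1 match. The TEAD motif in PDGFD intron 1 and the RUNX motif in PDGFC intron 3 and in the PDGFD promoter are also marked, and RUNX matches were present in 27.4% of all distal windows and in 13.1% of all RefSeq promoters. These matches describe letters only.

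The promoters of the ligand genes were examined first. PDGFD (ENSG00000170962, chromosome 11, 103777917 to 104035107, minus strand) had the strongest promoter peak of the family in every library. Its rank was 99.8, 99.8 and 99.9 in the parental libraries, against 97.5, 97.0 and 99.1 in the SAP30-KO1 libraries, so each SAP30-KO1 library lay below each parental library. The group values were 99.8 ± 0.0376 and 97.9 ± 1.12 (SD, n = 3), a difference of -1.99 percentile points (two-sided exact permutation test, p = 0.1, which is the smallest that 3 against 3 libraries allow). After adjustment over the 12564 protein-coding genes with a promoter summit in any library, the p was 0.945, the lowest value that any promoter reached in this exact permutation test. Among those promoters the ranks of the groups did not overlap in 10.6%, 4.58% being lower and 6.01% higher in SAP30-KO1. A rank this close to 100 compresses differences, and the places and scores behind it show them better. Ordered by score among all gene promoters of its library, PDGFD stood at places 43, 30 and 30 in the parental libraries, out of 9333 to 10222 genes. In the SAP30-KO1 libraries it stood at places 410, 658 and 171, out of 9298 to 10880 genes. The deposited score was 33.9, 33.4 and 35.3 in parental cells, against 18.6, 21.9 and 25.7 in SAP30-KO1 cells. On the scale of log2(score + 1) the difference was -0.62 (n = 3; two-sided exact permutation test, p = 0.1).

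The position of the PDGFD peak differed little between libraries. The parental summits lay 111, 172 and 110 bp upstream of the canonical transcript start at 104034875, and the SAP30-KO1 summits lay 15, 122 and 122 bp upstream of it. All of them lay between that start and the start of a longer PDGFD transcript at 104035107. The third PDGFD start, at 103907754, had no summit within 1 kb in any library.

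PDGFC (ENSG00000145431, chromosome 4, 157681606 to 157892951, minus strand) had the other promoter that was open in all 6 libraries. Its rank was 93.6, 83.1 and 93.3 in the parental libraries, against 82.4, 85.6 and 78.0 in the SAP30-KO1 libraries. The groups overlapped, since SAP30-KO1 replicate 2 lay above Parental replicate 2. The means were 90.0 ± 6.0 and 82.0 ± 3.81 (SD, n = 3), a difference of -8.01 (two-sided exact permutation test, p = 0.2). The summits lay 133 to 295 bp upstream of the start at 157892951, in a promoter that PDGFC shares with the long noncoding RNA gene ENSG00000250622. A further PDGFC start, 197.3 kb into the gene, had summits in SAP30-KO1 replicates 1 and 2 alone, at ranks of 15 and 48.5.

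At the promoters of the classical ligand genes few or no peaks were called. PDGFA (ENSG00000197461, chromosome 7, 536895 to 559933, minus strand) had a promoter summit at rank 27.0 in Parental replicate 1, at 5.56 in SAP30-KO1 replicate 1 and at 0.448 in SAP30-KO1 replicate 2, and none in the other libraries. The difference of -7.00 rested on Parental replicate 1 and was 2.0 without it (n = 3; exact permutation test with all libraries, two-sided, p = 1). The site lay in the first, untranslated exon and within 1 kb of the divergent noncoding gene PDGFA-DT. PDGFB (ENSG00000100311, chromosome 22, 39619364 to 39640987, minus strand) had no summit within 1 kb of any of its 4 starts in any library. The absence is a missing peak call and not a measure of closed chromatin, since AKT1, MAPK3 and FURIN, genes that most cells use, also had no promoter summit in any of the 6 libraries.

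Promoter peaks of the receptor genes were called in few libraries. PDGFRB (ENSG00000113721, chromosome 5, 149493402 to 149535435, minus strand) had a promoter summit in Parental replicates 2 and 3, at ranks of 69.2 and 33.6, and in no SAP30-KO1 library. In Parental replicate 2 its score of 8.20 was above the library median of 6.10 and stood at place 3823 of 9333 gene promoters. Parental replicate 1 had none either, so the groups overlapped at 0, and the difference of -34.3 had a p of 0.4 (n = 3; exact permutation test, two-sided). Without Parental replicate 1 the difference was -51.4. PDGFRA (ENSG00000134853, chromosome 4, 55095447 to 55164412, plus strand) had no summit within 1 kb of the starts at its 5′ end. A start inside the gene had a summit 616 bp away in SAP30-KO1 replicate 3, at a rank of 19.1, and the closest summit to the 5′ starts lay 1329 bp away in Parental replicate 1, just outside the promoter limit.

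**Figure D1:**
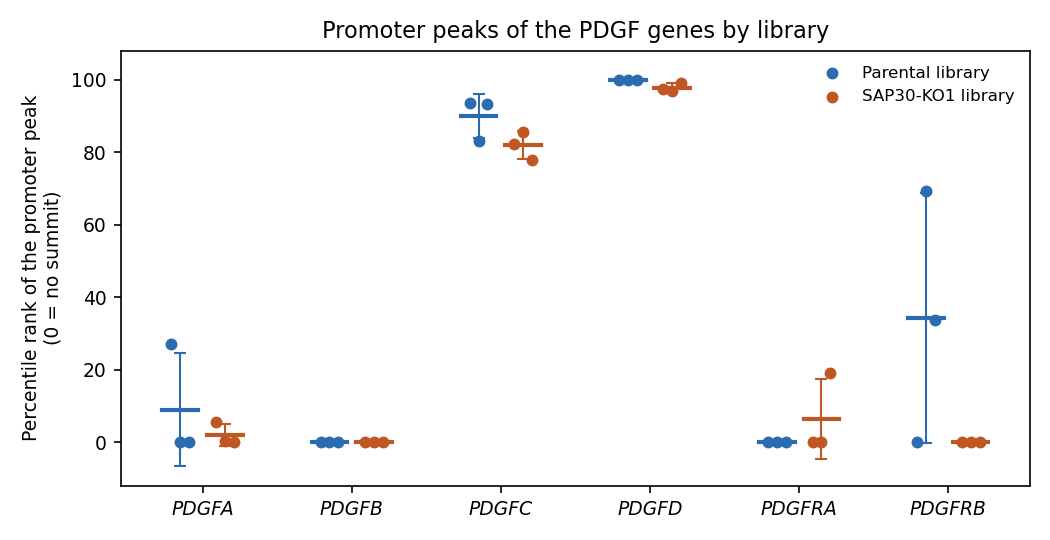
Percentile rank of the promoter peak of each PDGF gene (vertical axis, 0 to 100, 0 where a library had no summit within 1 kb of a start), with a point per library, a bar for the group mean and an error bar of 1 SD (n = 3). PDGFD lies at 97.0 or above in every library and PDGFC between 78.0 and 93.6, whereas PDGFB lies at 0 and the remaining genes have summits in 1 to 3 libraries.

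In order of mean promoter rank, PDGFD came before PDGFC in both groups, and their ranges did not overlap in either. Below PDGFC came PDGFRB, PDGFA, and then PDGFRA and PDGFB at 0 in parental cells, where the ranges of PDGFRB and PDGFA overlapped. In SAP30-KO1 cells PDGFRA and PDGFA followed, with overlapping ranges, and PDGFRB and PDGFB were at 0. No further test was made on this order.

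Distal sites were examined next, beginning with PDGFD. Its window of 307.2 kb held 6 sites, 3 of them found in all 6 libraries and 3 in parental libraries alone. The mean rank was lower in SAP30-KO1 than in parental cells at all 6, which detection fixed in advance at the latter 3. Over all open sites it was lower at 27561 of 56419. The second strongest PDGFD site lay in intron 1, 29.3 kb into the gene (chromosome 11, 104005239 to 104006020). Its rank was 97.2, 88.1 and 93.0 in the parental libraries, against 66.6, 78.9 and 85.6 in the SAP30-KO1 libraries, and the groups did not overlap. The means were 92.7 and 77.0, a difference of -15.7 (n = 3; two-sided exact permutation test, p = 0.1, and 0.988 adjusted over all 56419 sites). The score there was 19.4, 12.6 and 14.1 in parental cells, against 7.62, 11 and 11.9 in SAP30-KO1 cells. The third site found in all 6 libraries lay in intron 6, 253.2 kb into the gene. Its rank was 82.3, 83.0 and 8.1 in the parental libraries, against 20.9, 62 and 70.5 in the SAP30-KO1 libraries, so the groups overlapped through Parental replicate 3 (difference -6.64; two-sided exact permutation test, n = 3, p = 0.8). The remaining 3 PDGFD sites, 2 in intron 1 and 1 located 27.1 kb upstream, had summits in 1 or 2 parental libraries and in no SAP30-KO1 library, with ranks of at most 35.8.

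Open sites along the long arm of chromosome 11, on which PDGFD lies, mostly ranked lower in SAP30-KO1 cells. At the 454 sites of the arm with a summit in all 6 libraries the median rank difference was -14.7 and 88.8% were lower, against a median of 0.403 over such sites on all other arms. The groups did not overlap at 39.4% of the sites of the arm in the lower direction, at 1.1% in the higher and at 40.5% in either. Ranked within the arm, these shares were 18.5% lower, 4.85% higher and 23.3% in either direction. Within 2 Mb of PDGFD, 22 of 24 such sites outside its window were lower, 14 of them with groups that did not overlap, and the median difference was -14.6. On the scale of log2(score + 1) the median difference was -0.40 over the arm and -0.47 within 2 Mb, beside -0.62 at the PDGFD promoter and -0.55 at its intron 1 site. Of the 454 sites of the arm, 25.6% had a lower log2 difference than the PDGFD promoter and 33.9% a lower one than the intron 1 site. Ranked among the summits of the arm alone, the promoter was at 99.5 ± 0.307 (SD, n = 3) in parental cells, against 98.3 ± 0.815 with SAP30 knocked out, which differed by -1.16 with overlapping groups (two-sided exact permutation test, p = 0.2). The intron 1 site then differed by -6.89 and also overlapped (n = 3; two-sided exact permutation test, p = 0.5). The part of the arm in the lower values at PDGFD was not tested beyond these comparisons. The lists hold no read counts, so less open chromatin and fewer DNA copies of the arm cannot be told apart here.

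**Figure D2:**
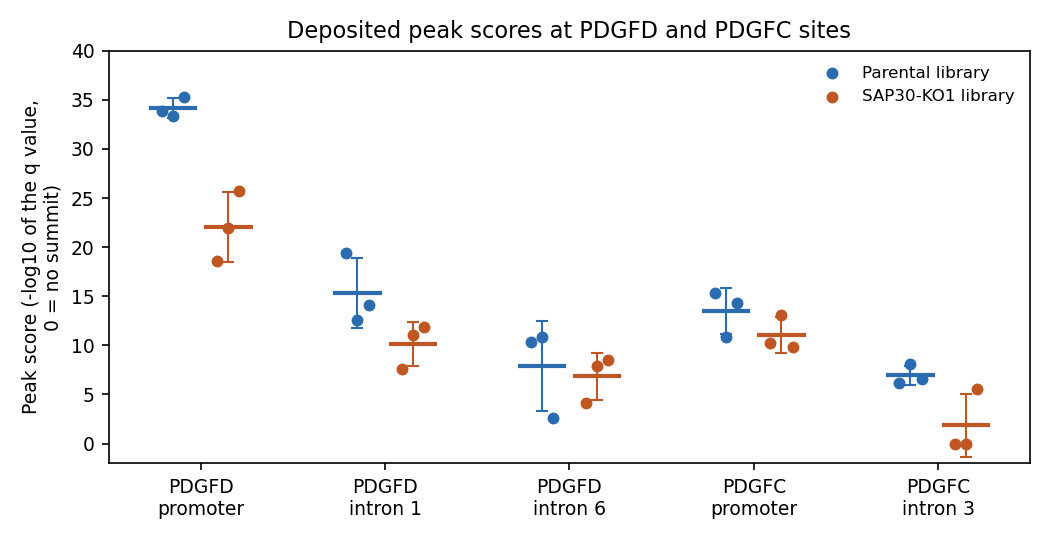
Deposited peak score (vertical axis, −log10 of the q value, 0 where no summit was called) at 5 sites of PDGFD and PDGFC, with a point per library, a bar for the group mean and an error bar of 1 SD (n = 3). The scores of the groups are apart at the PDGFD promoter (33.4 or more against 25.7 or less), at the PDGFD intron 1 site and at the PDGFC intron 3 site, and overlap at the other 2 sites.

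PDGFC held the densest set of sites of the family. Its window of 261.3 kb held 16 sites, or 6.12 per 100 kb, a density that 89.2% of protein-coding genes did not reach, against a median gene of 2.71. PDGFD, of similar length, held 1.95 per 100 kb. Of the 16 PDGFC sites, 11 were intronic and 5 upstream of the gene, and 8 had a summit in all 6 libraries. The PDGFC promoter itself was 1 of these 8, and the other 7 were distal. Beside the promoter, the strongest were the sites 29.5 kb and 141.3 kb into the gene. The site at 29.5 kb, in intron 1, had ranks of 71.3, 83.7 and 85.8 in parental cells, against 65.1, 89.0 and 79.5 in SAP30-KO1 cells. The site at 141.3 kb, in intron 2, had ranks of 56.6, 82.7 and 86.7 in parental cells, against 65.5, 83.9 and 89.0 in SAP30-KO1 cells. At both the groups overlapped, and at the 7 distal sites found in all libraries the differences ran from -14.7 to 7.26.

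Several PDGFC sites found in some of the libraries had higher mean ranks in SAP30-KO1 cells, with groups that overlapped. The site 32 kb upstream had ranks of 24, 0 and 0 in parental cells, against 54.3, 65.6 and 0 in SAP30-KO1 cells. That 22.2 kb into the gene had ranks of 0, 24.2 and 9.93, against 20.3, 74.8 and 0 in the same order. The site 5.92 kb upstream differed by 13.6 and that 24.9 kb into the gene by 1.45.

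At PDGFC a site in intron 3, 191.7 kb into the gene (chromosome 4, 157700724 to 157701500), ranked lower in every SAP30-KO1 library than in any parental library. Its rank was 55.9, 68.3 and 61.6 in the parental libraries, against 0, 0 and 42.3 in the SAP30-KO1 libraries. All parental libraries thus had a summit there, and SAP30-KO1 replicates 1 and 2 had none. The difference was -47.8 (n = 3; two-sided exact permutation test, p = 0.1, and 0.988 adjusted over all sites), and the groups were also apart when ranked within the arm (-47.6). The long arm of chromosome 4 had a median difference of -1.07 over 702 sites with a summit in all 6 libraries. Unlike the intron 3 site, those sites have no rank of 0, so their differences cannot be set directly against -47.8. The other PDGFC sites in introns 3 and 4 overlapped between the groups. The site 180.8 kb into the gene had ranks of 30.8, 0 and 0 in parental cells, against 50.9, 0 and 65.4 in SAP30-KO1 cells, that 186.7 kb into it was found in Parental replicate 1 alone, and that in intron 4 had a difference of -14.7.

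**Figure D3:**
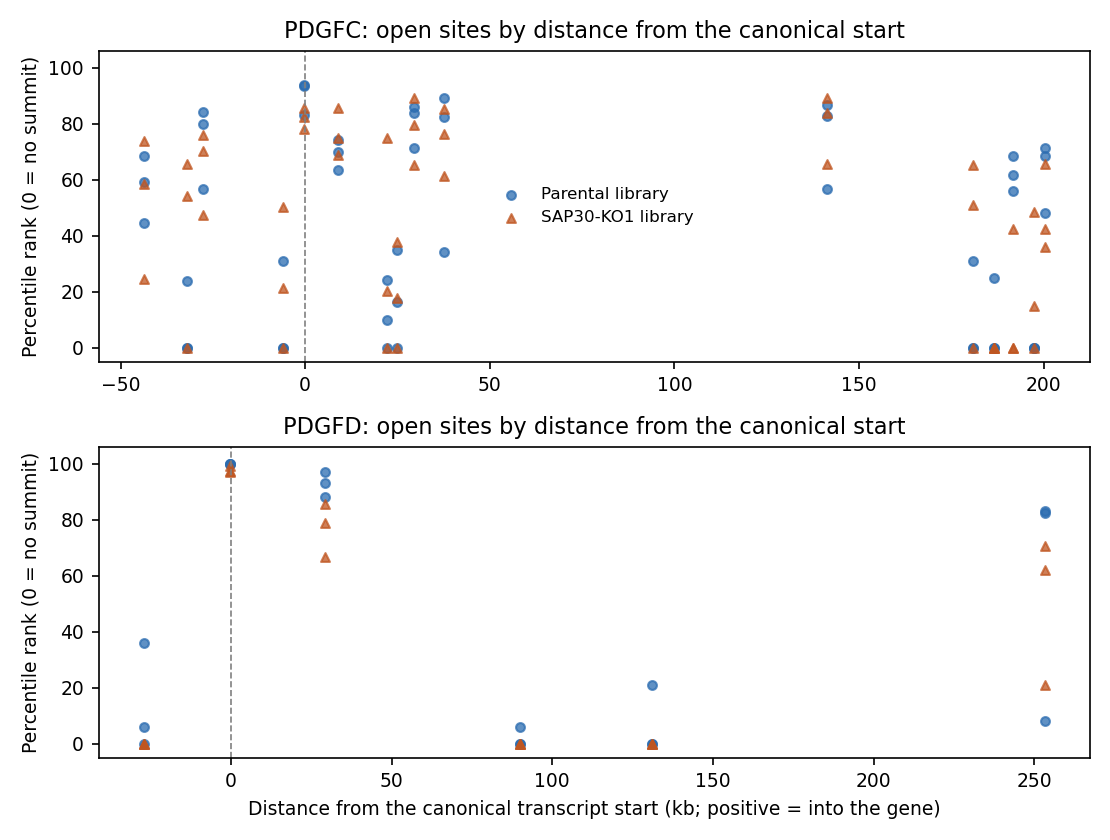
Open sites of PDGFC (upper panel) and PDGFD (lower panel) by distance from the canonical transcript start in kb (horizontal axis, positive into the gene) and percentile rank in each library (vertical axis, 0 where no summit was called). Circles are parental and triangles SAP30-KO1 libraries. PDGFC has 16 sites along the gene and upstream of it, whereas PDGFD has 6, with the promoter and the site 29.3 kb into the gene being the strongest.

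For each of the classical ligand genes, the only site with a summit in all 6 libraries was distal. The site of PDGFA found in all 6 libraries lay 23.4 kb upstream of the canonical start (chromosome 7, 582427 to 583227). Its rank was 32, 49.2 and 59.8 in parental cells, against 16.6, 52.7 and 84.9 in SAP30-KO1 cells, which spans the parental range. PDGFB had such a site 38.6 kb upstream (chromosome 22, 39678999 to 39680097), which lay closer to the start of RPL3, a ribosomal protein gene, at 30.1 kb. Its rank was 66.9, 22.3 and 49.9 in parental cells, against 34.6, 67.4 and 45.8 in SAP30-KO1 cells, again with overlapping groups. The other PDGFB site, 47.7 kb upstream and at the promoter of the noncoding gene ENSG00000224794, was found in Parental replicate 2 and SAP30-KO1 replicate 2 alone.

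The receptor genes had no site with a summit in every library. The most frequent was a PDGFRA site 11.5 kb upstream of the gene (chromosome 4, 55083710 to 55084356). Its rank was 40.8, 69.6 and 9.75 in parental cells, against 17.1, 16.1 and 0 in SAP30-KO1 cells, and the groups overlapped through Parental replicate 3 (difference -29.0; two-sided exact permutation test, n = 3, p = 0.3). A PDGFRA site in intron 16 was found in 3 libraries, as were a PDGFRB site in intron 1 and a PDGFRB site 5.76 kb upstream, which lay nearest to the start of CDX1. The remaining receptor sites were found in 1 or 2 libraries.

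Counted over all 37 sites, the groups did not overlap at 3 sites (8.11%, against 10.1% of all open sites), the PDGFD promoter, the PDGFD intron 1 site and the PDGFC intron 3 site. In both directions together this share was close to that of the genome. By direction, all 3 were lower and none higher in SAP30-KO1 cells, against 4.26% of all open sites lower and 5.86% higher, and 2 of the 3 lie on the long arm of chromosome 11. The mean rank was lower in SAP30-KO1 at 22 and higher at 15 of the 37 sites, with a median difference of -2.69 against 0.280 over all open sites. Over all open sites 27561 were lower and 28857 higher. Of the 22, 8 had summits in parental libraries alone, and of the 15, 3 had summits in SAP30-KO1 libraries alone. Detection alone fixed the direction at those sites. The 22 include all 6 PDGFD sites. Ranked within their arms, 1 site was apart, that in PDGFC intron 3, against 9.77% of all open sites, 4.08% being lower and 5.69% higher. With limma on the 24 PDGF sites among 32892 sites with a summit in at least 3 libraries, no PDGF site and no other site passed an adjusted p of 0.05. Only sites with a summit in at least 3 libraries can have groups that do not overlap. Among those 32892 sites the groups did not overlap at 17.4%, with 7.31% lower and 10.1% higher. Among the 24 PDGF sites they did not overlap at 3, all lower. Unadjusted p-values under 0.05 were found for 2 PDGF sites, those in PDGFD intron 1 (-15.7 ± 5.43, SE) and PDGFC intron 3 (-47.8 ± 19.9, SE), and for 11.2% of all sites tested with limma. The PDGFD promoter was not among them, with a difference of -1.99 ± 1.70 (SE; limma, unadjusted p = 0.26, adjusted p = 0.70).

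**Figure D4:**
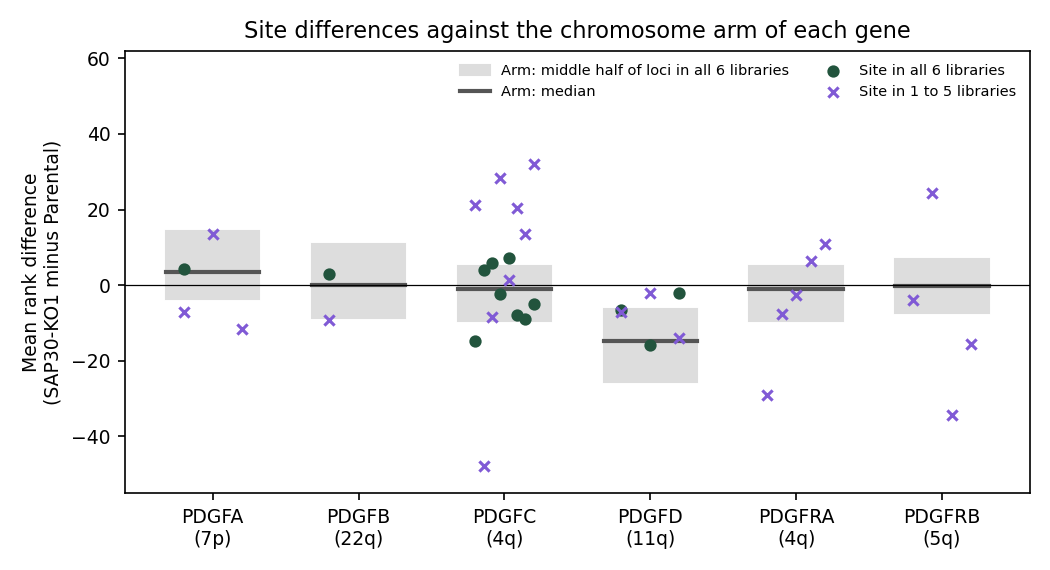
Mean rank difference, SAP30-KO1 minus parental (vertical axis, percentile points), of every open site of each PDGF gene, with circles for sites found in all 6 libraries and crosses for sites found in 1 to 5. Grey boxes span the middle 50% and dark lines the median of the sites found in all 6 libraries on the arm of the gene. All 6 PDGFD sites lie below 0, 3 of them found in parental libraries alone, and so does the median of their arm (-14.7). The PDGFC intron 3 site lies at -47.8.

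The number of summits in a window was then compared, a measure that does not use the rank of a summit. It still depends on the score, since peaks were called at a q value of 0.05. Over the 6 windows the parental libraries held 30, 20 and 21 summits and the SAP30-KO1 libraries 21, 25 and 22. PDGFD windows held 5, 3 and 5 summits in parental cells, against 3, 3 and 3 in SAP30-KO1 cells, a difference of -1.33 (n = 3; two-sided exact permutation test, p = 0.4). PDGFC windows held 15, 11 and 10 in parental cells, against 13, 13 and 12 in SAP30-KO1 cells (p = 0.9 in the same exact permutation test, n = 3). For PDGFA the counts were 3, 1 and 1 against 2, 4 and 2, and for the other 3 genes every count was between 1 and 3. None of the 6 windows had groups that did not overlap, against 3.78% of 17664 gene windows with a summit, 1.55% having fewer and 2.23% more summits in SAP30-KO1.

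Finally, promoters of 40 related genes were compared, as listed from known functions in the pathway. Among 11 relatives of the ligands and receptors, which are VEGF family genes and genes of related receptor tyrosine kinases, 6 had a promoter summit in any library and none had groups that did not overlap. VEGFA, VEGFD, PGF, FLT1 and FLT3 had no promoter summit. The neighbor of PDGFRB, CSF1R, which encodes the receptor for macrophage colony-stimulating factor, had a promoter summit in all 6 libraries, at ranks of 75.6, 22.3 and 7.87 in parental cells, against 53.2, 65.7 and 53.5 in SAP30-KO1 cells. KIT, the stem cell factor receptor and a neighbor of PDGFRA, had promoter summits in 5 libraries, at 11.5, 49.1 and 52.2 in parental cells, against 0, 65.8 and 63.0 in SAP30-KO1 cells. Both of these receptor promoters were thus found more often than that of the PDGF receptor gene beside them.

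Of the proteases and co-receptors that act on PDGF ligands, 4 of 6 had a promoter summit and none had groups apart. NRP1, which encodes the co-receptor neuropilin-1, ranked from 41.2 to 63.6 in parental and from 38.2 to 68.9 in SAP30-KO1 cells. PLAT, encoding the tissue plasminogen activator that cuts PDGF-C, had a promoter summit in all 6 libraries, whereas FURIN and ST14, the gene of matriptase, had none.

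Of the 23 signalling genes downstream of the receptors, 20 had a promoter summit, and at 4 of them the groups did not overlap, with 2 lower and 2 higher in SAP30-KO1. PIK3CA, a catalytic subunit of PI3 kinase, ranked at 90.2, 90.6 and 89.7 in parental cells, against 77.8, 86.6 and 75 in SAP30-KO1 cells. CBL, a ubiquitin ligase that ends receptor signalling and lies on the long arm of chromosome 11, ranked at 58.8, 45.9 and 51.1 against 0, 38.2 and 0.245. Both were lower in every SAP30-KO1 library. PIK3CB, another PI3 kinase subunit, ranked at 65.3, 55.7 and 47.7 in parental cells, against 69.6, 87.0 and 79.9 in SAP30-KO1 cells. GRB2, the adaptor that links receptors to RAS, ranked at 61.0, 62.6 and 52.5 in parental cells, against 89.3, 94.5 and 91.1 in SAP30-KO1 cells. All 4 also had separate groups when ranked within their arms, as did 10.1% of all promoters, 4.24% lower and 5.88% higher. They made up 13.3% of the 30 related genes with a promoter summit, against 10.6% of all protein-coding promoters, and the median difference over the 30 was 0.964 against 0.679.

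**Figure D5:**
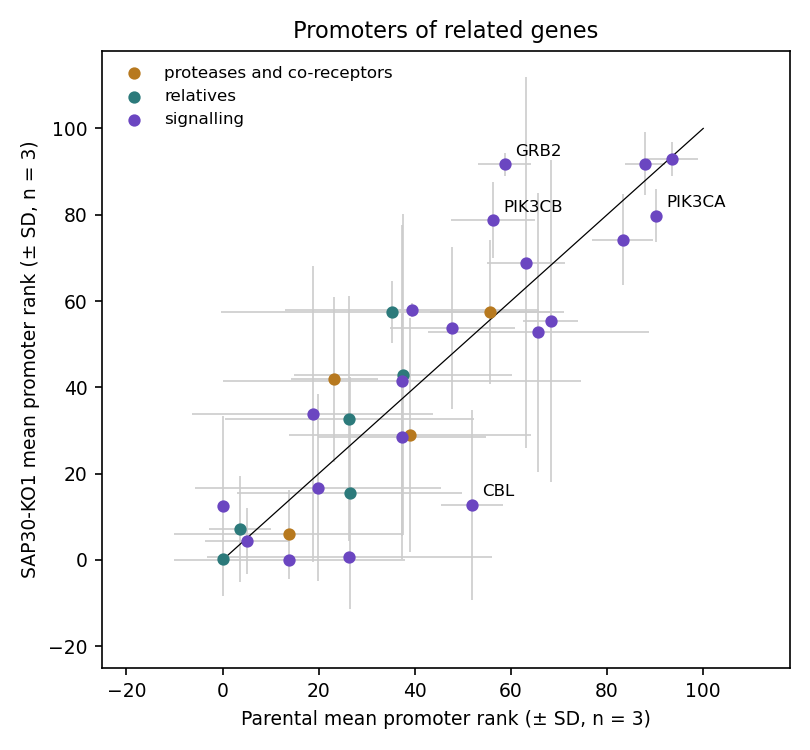
Mean promoter rank of 30 related genes with a promoter summit in any library, parental (horizontal axis) against SAP30-KO1 cells (vertical axis), with error bars of 1 SD (n = 3), colored by list, and the line of equality. The 4 named genes are those whose groups did not overlap: GRB2 and PIK3CB lie above the line, and PIK3CA and CBL below it.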

How the data were processed

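ATAC-seq libraries of MDA-MB-231 cells, 3 Parental and 3 SAP30-KO1 by their labels, were analysed. The authors sequenced 75 bp single-end reads, trimmed them with Trim Galore (0.4.5), aligned them to hg19 with bowtie2 (2.3.3.1), removed duplicates with Picard and called peaks in each library with MACS2 (2.1.0) at a q value of 0.05. Whether reads were shifted for the transposase or blacklisted regions removed is not given in the sources used here. The deposited lists give 1 summit per peak and its −log10 q value, with no read counts, so intervals of counting error cannot be given. Summit positions are those of GRCh37, counted from 1, and genes are those of GENCODE release 44 mapped to that build.

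Scores were ranked within each list. Summits were extended by 250 bp, and windows that overlapped were merged into open sites. A gene's window ran from 50 kb upstream to its end, and promoters were within 1 kb of any transcript start. The longest run of unknown bases marked the centromere between arms. Mean ranks of the groups were tested by exact permutation of the 20 assignments of libraries, two-sided, whose smallest p is 0.1. Benjamini-Hochberg adjustment was made over all sites, promoters or windows of the genome. limma (3.58.1 in R 4.3.3) was an alternative. Like the permutation test it was run on simulated data, and the outcome of these runs is not given here. The members and lists were chosen with earlier results of these data known. All 6 genes were named, with their sites found in at least 3 libraries named or given as a range, and related genes whose groups did not overlap, while other related genes are examples. Sequence windows were 300 bp around the median summit, read from GRCh37, except for PDGFD, whose RefSeq promoter (table built on GRCh38.p14) was matched to GRCh37 and printed because it holds all summits. RefSeq promoters were at hand for 4 of the 6 genes. Alternatives were stricter q values, equal list lengths, other promoter and window limits, ranks within an arm, the log2 score, narrower sites, a replicate block, and omission of single libraries.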

Additional observations from a re-analysis of the deposited data

How the results depend on the processing

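With 3 libraries per group no exact permutation test here reaches a p under 0.1, so the alternatives are described by direction and by whether the groups overlapped. The PDGFD promoter difference was below 0 in every alternative run on it, and its groups overlapped when ranked within the arm (-1.16) and in no other of these. Ranked within the arm, the number of lower PDGF sites was 1 in place of 3. With limma there were 0 lower PDGF sites, and the PDGFD promoter had an unadjusted p of 0.26. The PDGFC promoter groups became separate with the same number of top-ranked summits (-9.97). The PDGFA promoter difference turned to 0.42 on the log2(score + 1) scale, that of PDGFRA to -1.29 with promoters of 2.5 kb, and the PDGFA summit number to -0.667 at a q value of 0.0001 or less. Other differences moved without a change of call. That in PDGFD summit number was 0 with q values limited to 0.0001 and -0.333 with equal list lengths, against -1.33. That of the PDGFRB promoter was -5.90 with promoters of 2.5 kb, against -34.3, and that of the PDGFRA promoter was 0 with promoters of 500 bp and with that limit on q. The PDGFA promoter difference was -0.216 with that limit and -1.49 with equal list lengths, against -7.00. For these changes the cause was not tested.

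Leaving out each library in turn, promoter rank differences ran from -2.62 to -1.55 for PDGFD, from -11.5 to -6.02 for PDGFC, from -11.5 to 2.0 for PDGFA, from 0 to 9.56 for PDGFRA and from -51.4 to -16.8 for PDGFRB. Differences in summit number ran from -2 to -1 for PDGFD, from -0.333 to 2.17 for PDGFC, from 0.333 to 1.67 for PDGFA, from -0.667 to -0.167 for PDGFB, from -0.500 to 0 for PDGFRA and from -1.17 to -0.167 for PDGFRB. Fewer libraries make separate groups easier to reach. Promoter groups became separate for PDGFC without Parental replicate 2 or without SAP30-KO1 replicate 2 and for PDGFRB without Parental replicate 1, and summit numbers became separate for PDGFA and PDGFC without Parental replicate 1 and for PDGFD without Parental replicate 2. How many of all promoters and windows became separate in the same way was not computed, so these changes are not read as results about the genes. The PDGFA promoter turned to higher without Parental replicate 1, and the PDGFC summit number to lower without Parental replicate 3. Lower PDGF sites numbered 3 to 8, with 8 without Parental replicate 2, 5 without Parental replicate 3 and 5 without SAP30-KO1 replicate 2, where 9.04%, 7.90% and 7.99% of all open sites were lower in the same way. Higher PDGF sites numbered 0 to 2, with 2 when any SAP30-KO1 library was left out, where 12.7%, 7.90% and 9.96% of all open sites were higher without replicates 1, 2 and 3. Lower related promoters numbered 2 to 4, with 4 without SAP30-KO1 replicate 2, and higher ones 2 to 7, with 7 without SAP30-KO1 replicate 1. The share over all promoters was not computed for these omissions, so these counts are not read as a result about the related genes.

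Libraries of the same replicate number did not deviate together (correlations of -0.0179, -0.0127 and -0.0032 over sites found in all 6 libraries), and no library correlated best with its own number. With the numbers as a replicate block, 4 PDGF sites were lower and 1 was higher in all 3 pairs, against 7.39% and 9.44% of all open sites, and the PDGFD promoter difference of -1.99 had a p of 0.25 (exact sign-flip permutation test, n = 3), the smallest the block allows. The depth of the libraries is unknown, so weak sites found in 1 or 2 libraries cannot be told from sites missed by the peak caller.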

Other observations

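Within 2 Mb of PDGFA, 18 sites outside its window had a summit in all 6 libraries, with a median rank difference of 18.5, and at 5 of them the groups did not overlap, all higher in SAP30-KO1. On the whole short arm of chromosome 7 the groups did not overlap at 20.6% of 432 such sites, 68 of them higher, and the median was 3.42, and the PDGFA site found in all 6 libraries differed by 4.40 with overlapping groups. Within 2 Mb of PDGFRB, the median difference over 65 such sites was -2.08, with 11 sites lower and 6 higher with separate groups. On the whole long arm of chromosome 5 the groups were separate at 16.8% of 1007 such sites, 79 lower and 90 higher. Within 2 Mb of PDGFRA the median difference was -4.97 over 20 such sites, none with separate groups. On the whole long arm of chromosome 4 they were separate at 10.5% of 702 such sites, 45 lower and 29 higher. These values were picked after they had been seen and were not tested.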
